A study of Rattus norvegicus with 9 samples.

Results

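The 9 genes Cx3cr1, P2ry12, Tmem119, Csf1r, Aif1, C1qa, C1qb, C1qc and Trem2, which mark microglia in brain tissue, were followed in RNA-seq libraries of rat medial prefrontal cortex (Wistar Kyoto strain). They were taken by gene symbol from a deposited table of 37991 genes. All 9 had counts in every library and passed the filter on low counts that left 18047 genes for testing. Wistar Kyoto is an inbred strain that shows depression-like behaviour, and it was the background of every group. The K4 group (3 libraries) received K4, a compound known here only by its code, through an intravenous cannula for 7 days. Rats of the Ketamine group (3 libraries) received ketamine, an NMDA receptor antagonist, under the skin for 7 days. Both drugs were then withdrawn for 7 days, and tissue was taken on day 15. Control rats (3 libraries, day 15) were left untreated. The labels give no dose, age, sex, vehicle or sham cannula, so the compound, its route and the handling cannot be told apart. They do not say that each library came from a separate rat, so p-values measure the spread between these libraries, which may be partly technical.

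Microglia are the resident macrophages of the brain. They depend on the growth factor receptor CSF1R for survival, and they sense neurons and injury through surface receptors. CX3CR1 binds fractalkine, a chemokine that neurons display and shed, and P2RY12 senses extracellular ADP and steers the movement of microglial processes. TREM2 is a lipid-sensing receptor that signals through the adaptor TYROBP, and C1QA, C1QB and C1QC are the chains of C1q, which starts the classical complement pathway and tags synapses. P2RY12, CX3CR1 and TMEM119 mark the homeostatic state of microglia in the rodent brain. Border macrophages share CSF1R, AIF1, C1q and in part CX3CR1 with microglia.

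Library totals were 28495399 to 32735785 counts in K4, 27122207 to 33837450 in Ketamine and 40863756 to 42731004 in Control. Raw counts of the 9 genes ran from 193 (Trem2 in K4 replicate 3) to 5774 (Csf1r in Control replicate 2). Control replicate 2 stood apart for these genes. The mean log2 deviation of the 9 genes from their own means was 0.40 in that library and lay between −0.13 and 0.07 in the other 8. All of the 9 genes except C1qc had their highest CPM (read counts scaled to library size) in that library. The 13 mitochondrially encoded protein genes took 18.95% of its counts, against 14.6% and 11.6% in the other Control libraries, 10.4 to 11.4% in K4 and 10.7 to 11.8% in Ketamine. Values without this library are given beside many, though not all, of the results that it moves. The part of the mitochondrial share in these results was not tested.

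The promoter regions of Cx3cr1, whose transcript fell after ketamine, and of C1qa and C1qb, neighbours on chromosome 5 whose transcripts did not pass the test, are printed to set a receptor beside the complement chains. RefSeq promoter entries (build GRCr8) were found for 5 of the 9 genes, and not for P2ry12, Tmem119, Aif1 or C1qc. The 250 bases before the annotated start were searched on both strands for GAGGAA, the core of the PU box read by the myeloid factor PU.1 (Spi1), and for GGAAGT, a core letter string of the wider ETS family. The motifs share the letters GGAA, and no matches overlap in the sequences shown. Capitals mark the matches, and a match on the opposite strand reads TTCCTC or ACTTCC. The windows lie at chr8:128677067-128677316 for Cx3cr1, chr5:154419934-154420183 for C1qa and chr5:154407828-154408077 for C1qb, all on the minus strand and written 5′ to 3′ on the strand of the gene.
Cx3cr1: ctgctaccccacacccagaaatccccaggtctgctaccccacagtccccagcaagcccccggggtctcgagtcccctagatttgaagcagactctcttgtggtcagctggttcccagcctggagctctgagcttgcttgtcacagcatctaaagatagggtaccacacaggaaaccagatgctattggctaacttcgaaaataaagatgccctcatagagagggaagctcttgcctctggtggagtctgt
C1qa: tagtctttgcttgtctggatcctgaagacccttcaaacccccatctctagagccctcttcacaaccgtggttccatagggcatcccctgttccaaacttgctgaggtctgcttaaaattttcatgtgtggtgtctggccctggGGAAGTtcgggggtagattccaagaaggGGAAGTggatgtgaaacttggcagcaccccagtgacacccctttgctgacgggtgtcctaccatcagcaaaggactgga
C1qb: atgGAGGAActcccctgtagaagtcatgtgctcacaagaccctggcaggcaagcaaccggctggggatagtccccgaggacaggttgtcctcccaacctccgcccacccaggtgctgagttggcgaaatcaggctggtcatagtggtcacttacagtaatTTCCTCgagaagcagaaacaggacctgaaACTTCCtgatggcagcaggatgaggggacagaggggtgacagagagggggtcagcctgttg
C1qa held GGAAGT at −107 and −79 from the start, and C1qb held GAGGAA at −247 and −90 and GGAAGT at −61. Neither string occurred in the Cx3cr1 window. Among the windows not printed, Csf1r, also called lower after ketamine, held GAGGAA at −229 and −95, and Trem2 held it at −29. C1qa held no GAGGAA, so the strings did not set Cx3cr1 and Csf1r apart from C1qa and C1qb. P2ry12 and C1qc could not be searched. GAGGAA was present in 3 of the 5 windows and GGAAGT in 2 of 5, against 23.3% and 19.2% of 33469 rat promoter windows of the same length. These are letter matches only, and binding was not measured.

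Per transcript length, C1qa was the most abundant of the 9 genes and Tmem119, a membrane protein of unsettled function, the least. On the deposited TPM scale (which scales by transcript length and by library), C1qa averaged 97.9 over the 9 libraries, Csf1r 54.2, Aif1 51.5, C1qb 48.8, P2ry12 38.1, Cx3cr1 33.4, C1qc 31.3, Trem2 14.9 and Tmem119 13.4. C1qa lay above Csf1r in every library, with a range of 79.5 to 111.1 against 47.7 to 64.4 TPM. The ranges of neighbours from Csf1r to C1qc overlapped. C1qc (24.7 to 37.4 TPM) stood clear of Trem2 (11.7 to 17.9), whose range overlapped that of Tmem119 (10.2 to 17.9). The 9 genes thus fell into a high one, 6 intermediate ones and 2 low ones.

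**Figure D1:**
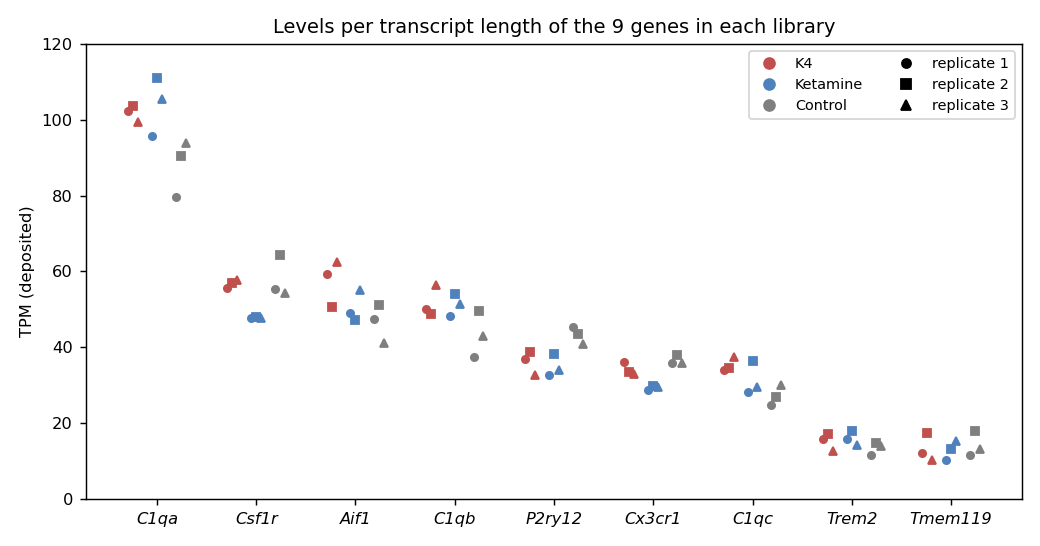
Deposited TPM of the 9 genes (vertical axis) in each of 9 libraries; genes are ordered by their mean, colours mark K4, Ketamine and Control, and symbols mark the replicates. C1qa lies at 79.5 TPM or above in every library, and Trem2 and Tmem119 at 17.9 or below.

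After withdrawal, the surface receptors P2ry12, Cx3cr1 and Csf1r were lower than in untreated rats, whereas the C1q chains, Aif1, Trem2 and Tmem119 did not pass the test. P2ry12 fell after both drugs, with mean CPM of 37.9 ± 0.82 in K4, 35.7 ± 1.28 in Ketamine and 54.2 ± 12.4 in Control (SD, n = 3 each). Cx3cr1 and Csf1r fell after ketamine. In K4 against Control, 1 of the 9 genes was called lower and none higher at a Benjamini-Hochberg adjusted p below 0.05 in edgeR's quasi-likelihood test, where 6.07% of all genes tested were called (3.80% lower and 2.27% higher). In Ketamine against Control, 3 of 9 were called lower and none higher, where 16.7% of all genes were called (9.75% lower and 6.95% higher). The median log2 fold change of the 9 genes was 0.00 after K4 and −0.02 after ketamine, against 0.00 over all genes in both comparisons, and in each comparison 4 of the 9 genes lay above 0 and 5 below. Without Control replicate 2 the medians were 0.15 after K4 and 0.17 after ketamine, against 0.01 over all genes in both. The comparisons share the 3 Control libraries. In bulk tissue, fewer microglia and less RNA per microglial cell cannot be told apart.

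P2ry12 (gene ID 64803), the ADP receptor, had 38.8, 37.8 and 37.1 CPM in K4 replicates 1 to 3, 34.7, 37.1 and 35.2 CPM in Ketamine, and 53.7, 66.9 and 42.1 CPM in Control. All 6 treated libraries lay below all 3 Control libraries, and the treated values were much closer together than the Control values. The log2 fold change was −0.52 for K4 (SE 0.13, edgeR adjusted p = 0.0391) and −0.60 for Ketamine (SE 0.13, edgeR adjusted p = 0.00946). The ketamine call was made in each of 9 fits that left out 1 library, with log2 fold changes of −0.74 to −0.42 and edgeR adjusted p up to 0.0409. The K4 call was made in 2 of those fits, without Control replicate 2 (log2 fold change −0.34, edgeR adjusted p = 0.0258) and without Control replicate 3 (−0.65, edgeR adjusted p = 0.00226). Leaving out any of the other 7 libraries ended it at log2 fold changes of −0.53 to −0.50, with an edgeR adjusted p of 0.106 without Control replicate 1, 0.0973, 0.0983 and 0.115 without K4 replicates 1 to 3, and 0.0596, 0.0593 and 0.0616 without Ketamine replicates 1 to 3. With only the K4 and Control libraries in the fit its adjusted p was 0.0959.

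In RefSeq GRCr8, P2ry12 lies inside Med12l, a gene for a Mediator subunit, and whether the counts were made by strand is not given in the sources used here. Reads of the pair may therefore have been shared. Med12l averaged 7.79 ± 0.305 CPM in K4, 5.53 ± 1.23 CPM in Ketamine and 9.13 ± 0.569 CPM in Control (SD, n = 3 each). After ketamine Med12l fell by 0.72 on the log2 scale (SE 0.15, edgeR adjusted p = 0.00559); its value for K4 was −0.23 (edgeR adjusted p = 0.359). Its part in the P2ry12 values was not tested.

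Cx3cr1 (gene ID 171056), the fractalkine receptor, had 22.5, 22.0 and 20.5 CPM in K4, 18.9, 19.1 and 19.6 CPM in Ketamine, and 25.0, 30.9 and 23.1 CPM in Control. The groups did not overlap in any pairing, with Ketamine lowest, K4 between and Control highest. Cx3cr1 fell by 0.46 on the log2 scale after ketamine (SE 0.10, edgeR adjusted p = 0.00879), a call made in all 9 fits that left out 1 library (edgeR adjusted p up to 0.0446). For K4 the log2 fold change was −0.28 (SE 0.099, edgeR adjusted p = 0.11) and passed the threshold in 1 of those fits, without Control replicate 3 (−0.35, edgeR adjusted p = 0.0456). The log2 fold changes of Cx3cr1 without Control replicate 2 were −0.15 for K4 and −0.32 for Ketamine (edgeR adjusted p = 0.287 and 0.0145). Cx3cr1 overlaps the long noncoding RNA gene LOC134480114 in GRCr8, so its counts carry the same doubt about strand.

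Csf1r (gene ID 307403), the receptor for CSF1 and IL-34, had 99.3, 107.3 and 102.1 CPM in K4, 89.7, 87.6 and 90.6 CPM in Ketamine, and 110.9, 150.1 and 99.8 CPM in Control. The Ketamine libraries lay below every library of the other groups, while 2 of the 3 K4 values fell within the Control range. Csf1r fell by 0.43 on the log2 scale after ketamine (SE 0.12, edgeR adjusted p = 0.0302). That call was lost without Ketamine replicate 1, 2 or 3 (edgeR adjusted p = 0.0736, 0.101 and 0.0827) and when only the Ketamine and Control libraries were fitted (edgeR adjusted p = 0.054). For K4 the log2 fold change was −0.22 (SE 0.12, edgeR adjusted p = 0.278). The values of Csf1r without Control replicate 2 were −0.035 for K4 and −0.24 for Ketamine (edgeR adjusted p = 0.785 and 0.014).

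Trem2 and Tmem119, the least abundant of the 9 genes per length, showed no separation of the groups. Trem2 (gene ID 301227) had 8.10, 9.26 and 6.52 CPM in K4, 8.59, 9.51 and 7.78 CPM in Ketamine, and 6.84, 9.78 and 7.32 CPM in Control. The 3 groups overlapped. Its log2 fold change was 0.00 for K4 (95% interval −0.35 to 0.35, edgeR adjusted p = 0.999) and 0.11 for Ketamine (−0.23 to 0.46, edgeR adjusted p = 0.679). Tmem119 (gene ID 304581) had 12.9, 19.3 and 10.7 CPM in K4, 11.6, 14.1 and 16.9 CPM in Ketamine, and 13.9, 24.7 and 14.2 CPM in Control. Its groups overlapped, with 1 high library each in K4 and Control. The log2 fold changes of −0.29 for K4 (95% interval −0.93 to 0.34, edgeR adjusted p = 0.582) and −0.30 for Ketamine (−0.94 to 0.33, edgeR adjusted p = 0.512) had the widest intervals of the 9 genes, so a change of the size seen in P2ry12 was not detectable. Without Control replicate 2, Tmem119 was at 0.032 for K4 and 0.025 for Ketamine, and Trem2 at 0.17 and 0.28 (edgeR adjusted p of 0.24 to 0.962).

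The complement chains gave a different picture from the receptors. C1qa (gene ID 298566) had 48.1, 51.6 and 46.5 CPM in K4, 47.5, 53.7 and 52.9 CPM in Ketamine, and 42.1, 55.6 and 45.6 CPM in Control. C1qb (gene ID 29687) had 25.4, 26.1 and 28.4 CPM in K4, 25.8, 28.1 and 27.7 CPM in Ketamine, and 21.4, 32.9 and 22.4 CPM in Control. For both chains the treated libraries lay above Control replicates 1 and 3 and below Control replicate 2. C1qc (gene ID 362634) had 20.5, 21.5 and 21.4 CPM in K4, 17.9, 21.7 and 18.8 CPM in Ketamine, and 16.4, 20.9 and 18.1 CPM in Control, and its groups overlapped.

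None of the 3 chains was called in either comparison. For K4 the log2 fold changes were 0.03 for C1qa, 0.06 for C1qb and 0.20 for C1qc (edgeR adjusted p = 0.877, 0.831 and 0.259), and for Ketamine 0.11, 0.09 and 0.08 (edgeR adjusted p = 0.478, 0.693 and 0.65). The 95% intervals were −0.17 to 0.23, −0.24 to 0.36 and −0.02 to 0.41 for K4, and −0.10 to 0.31, −0.20 to 0.39 and −0.14 to 0.30 for Ketamine. Without Control replicate 2, C1qb was called higher after K4 (log2 fold change 0.28, edgeR adjusted p = 0.0491), and C1qa and C1qb were called higher after ketamine (0.23 and 0.31, edgeR adjusted p = 0.0495 and 0.0173). In that same fit the 3 receptors were still called lower after ketamine, with log2 fold changes of −0.42 for P2ry12, −0.32 for Cx3cr1 and −0.24 for Csf1r (edgeR adjusted p = 0.00385, 0.0145 and 0.014). The count of the 9 genes called was then 5 after ketamine, where 16.6% of all 18391 genes tested were called, and 2 after K4, where 8.42% were.

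Aif1 (gene ID 29427), which encodes the actin-binding protein IBA1 used to stain microglia, had 18.7, 17.1 and 19.3 CPM in K4, 16.8, 15.1 and 18.6 CPM in Ketamine, and 16.6, 21.3 and 13.5 CPM in Control. Control held both the highest and the lowest value. Its log2 fold change was 0.10 for K4 (95% interval −0.20 to 0.41, edgeR adjusted p = 0.714) and −0.02 for Ketamine (−0.33 to 0.28, edgeR adjusted p = 0.938). These were 0.29 and 0.17 without Control replicate 2 (edgeR adjusted p = 0.138 and 0.375).

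**Figure D2:**
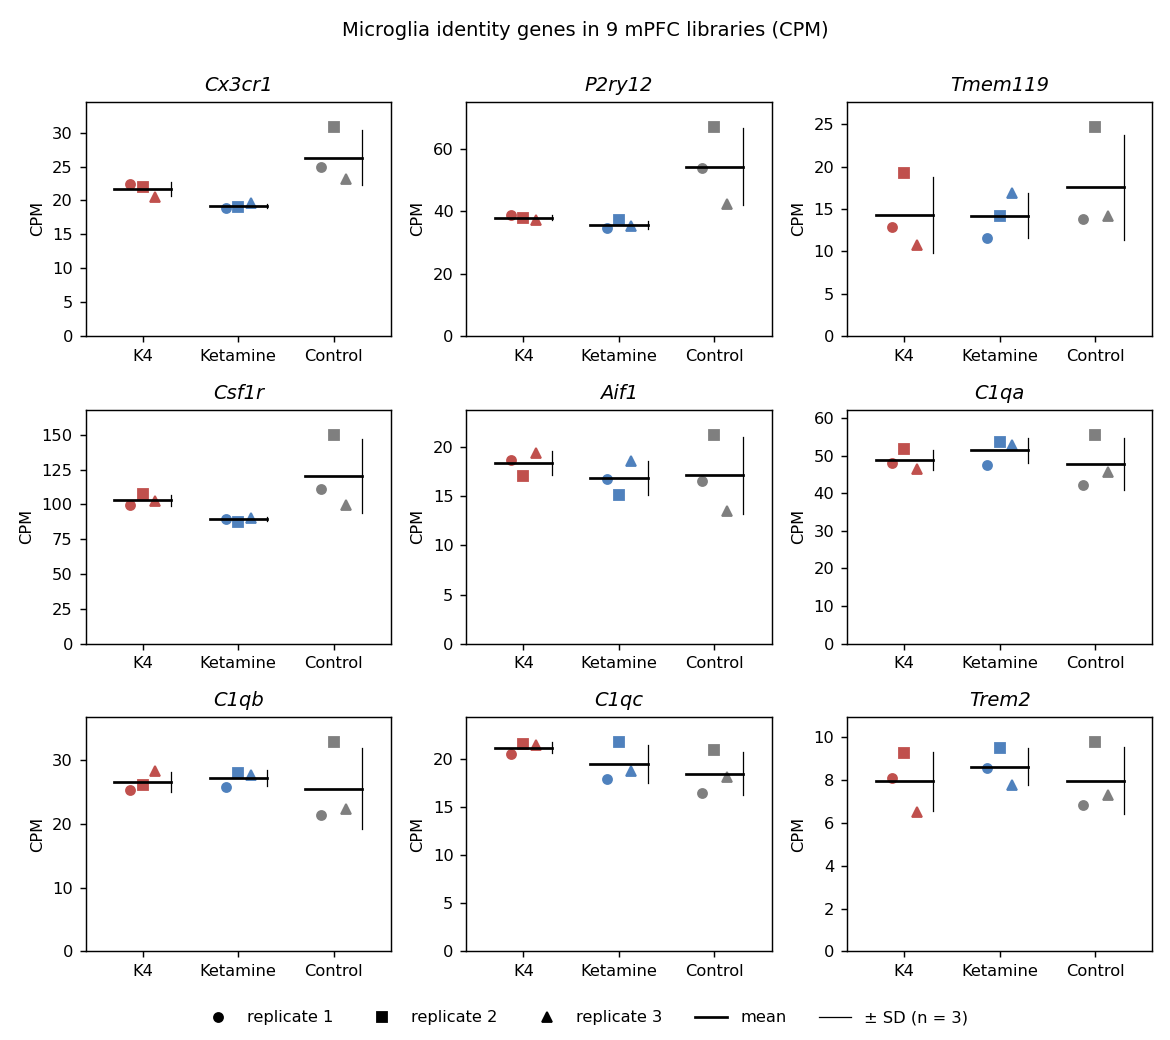
CPM of each of the 9 genes by group (vertical axes start at 0); symbols mark replicates 1 to 3, horizontal bars the mean and vertical bars ± SD of 3 libraries. P2ry12 and Cx3cr1 lie below Control in all 6 treated libraries, Csf1r lies below Control in the 3 Ketamine libraries, and the square of Control replicate 2 is the highest point of every panel except that of C1qc.

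**Figure D3:**
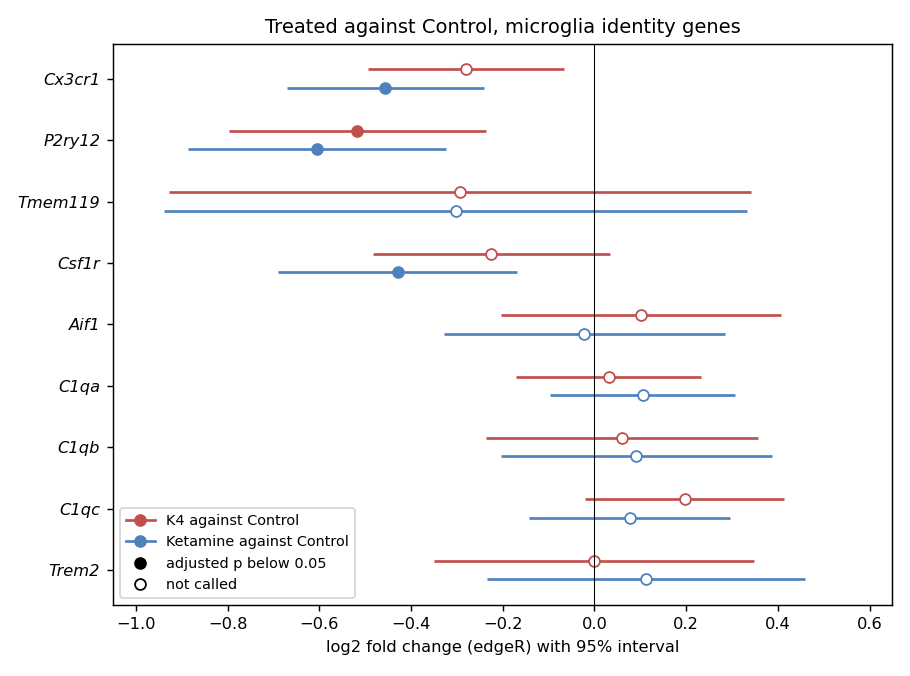
Log2 fold change against Control with its 95% interval from edgeR for the 9 genes (horizontal axis); filled points have an adjusted p below 0.05. P2ry12 is filled for both drugs (−0.52 for K4, −0.60 for Ketamine), Cx3cr1 and Csf1r for Ketamine alone (−0.46 and −0.43), and the other genes are open.

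Across all genes, K4 libraries lay wholly below Control libraries in CPM for 14.2% of genes and Ketamine libraries for 18.1%, which is the background for the non-overlap of P2ry12 and Cx3cr1 (K4) and of P2ry12, Cx3cr1 and Csf1r (Ketamine). Count folds were also fitted with an offset for any trend of each library's counts with transcript length, and the size of that trend is not given here. With an offset for that trend, P2ry12 was still called lower after K4 (−0.53, edgeR adjusted p = 0.0489), and P2ry12 and Cx3cr1 after ketamine (−0.64 and −0.57, edgeR adjusted p = 0.0128 and 0.00513), but Csf1r, the longest of the 9 transcripts (4.32 kb implied by the deposited values), was not (−0.36, edgeR adjusted p = 0.0901).

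On the deposited TPM scale the contrast between receptors and C1q took another form. C1qa averaged 101.8 ± 2.21 TPM in K4, 104.1 ± 7.77 TPM in Ketamine and 87.9 ± 7.46 TPM in Control (SD, n = 3 each), and both treated groups lay above Control without overlap. C1qb averaged 51.8 ± 4.06 TPM in K4, 51.2 ± 2.86 TPM in Ketamine and 43.4 ± 6.07 TPM in Control, and both treated groups overlapped with Control. C1qc averaged 35.3 ± 1.83 TPM in K4, 31.4 ± 4.42 TPM in Ketamine and 27.1 ± 2.66 TPM in Control, where K4 lay above Control without overlap and Ketamine overlapped. Of all genes tested, 24.4% lay wholly above Control in K4 on this scale and 21.7% in Ketamine. P2ry12 averaged 36.2 ± 3.08 TPM in K4, 34.9 ± 2.83 TPM in Ketamine and 43.2 ± 2.14 TPM in Control, lower in both treated groups without overlap, as were 3.24% of all genes in K4 and 7.52% in Ketamine. Cx3cr1 averaged 34.2 ± 1.65 TPM in K4, 29.4 ± 0.505 TPM in Ketamine and 36.5 ± 1.18 TPM in Control, and K4 overlapped with Control. Csf1r averaged 56.8 ± 0.967 TPM in K4, 47.8 ± 0.125 TPM in Ketamine and 58.0 ± 5.58 TPM in Control. On log2(TPM + 1), limma called Cx3cr1 after ketamine (−0.31, limma adjusted p = 0.0431) but not P2ry12 (−0.25 for K4 and −0.30 for Ketamine, limma adjusted p = 0.121 and 0.0658) or Csf1r (−0.03 and −0.27, limma adjusted p = 0.878 and 0.0703). The median of all genes on this scale was itself shifted by 0.16 for K4 and 0.12 for Ketamine. Relative to that median, the 3 receptors stood lower and C1qa (0.21 and 0.24) stood higher on this scale.

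Dividing each gene by the summed CPM of C1qa, C1qb and C1qc in the same library sets receptors against complement within a library, a quantity chosen after the data were seen. P2ry12, Cx3cr1 and Csf1r, printed here, are the receptors called lower after ketamine in these same libraries. P2ry12 per C1q was 0.412, 0.380 and 0.386 in K4, 0.380, 0.358 and 0.354 in Ketamine, and 0.672, 0.612 and 0.489 in Control. Cx3cr1 per C1q was 0.239, 0.222 and 0.213 in K4, 0.207, 0.184 and 0.197 in Ketamine, and 0.313, 0.282 and 0.269 in Control. Csf1r per C1q was 1.055, 1.08 and 1.06 in K4, 0.983, 0.847 and 0.911 in Ketamine, and 1.39, 1.37 and 1.16 in Control.

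All 6 treated libraries lay below all Control libraries for each of these 3 receptors, Control replicate 2 included, and the ratios were higher in K4 than in Ketamine without overlap, for P2ry12 by a narrow margin (0.3804 against 0.3799 at the nearest). Over the 18044 other genes the ratio was wholly lower in K4 than in Control for 11.6%, wholly lower in Ketamine than in Control for 14.2%, and wholly higher in K4 than in Ketamine for 6.38%. Ratios of Tmem119, Aif1 and Trem2 overlapped in every pairing. With edgeR scaled to the C1q sum, which shifted the median of all genes by −0.10 for K4 and −0.12 for Ketamine, P2ry12 had log2 fold changes of −0.59 for K4 and −0.70 for Ketamine (edgeR adjusted p = 0.017 and 0.000793). Cx3cr1 had −0.36 and −0.55 (edgeR adjusted p = 0.244 and 0.012), and Csf1r −0.29 and −0.52 (edgeR adjusted p = 0.341 and 0.0132).

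**Figure D4:**
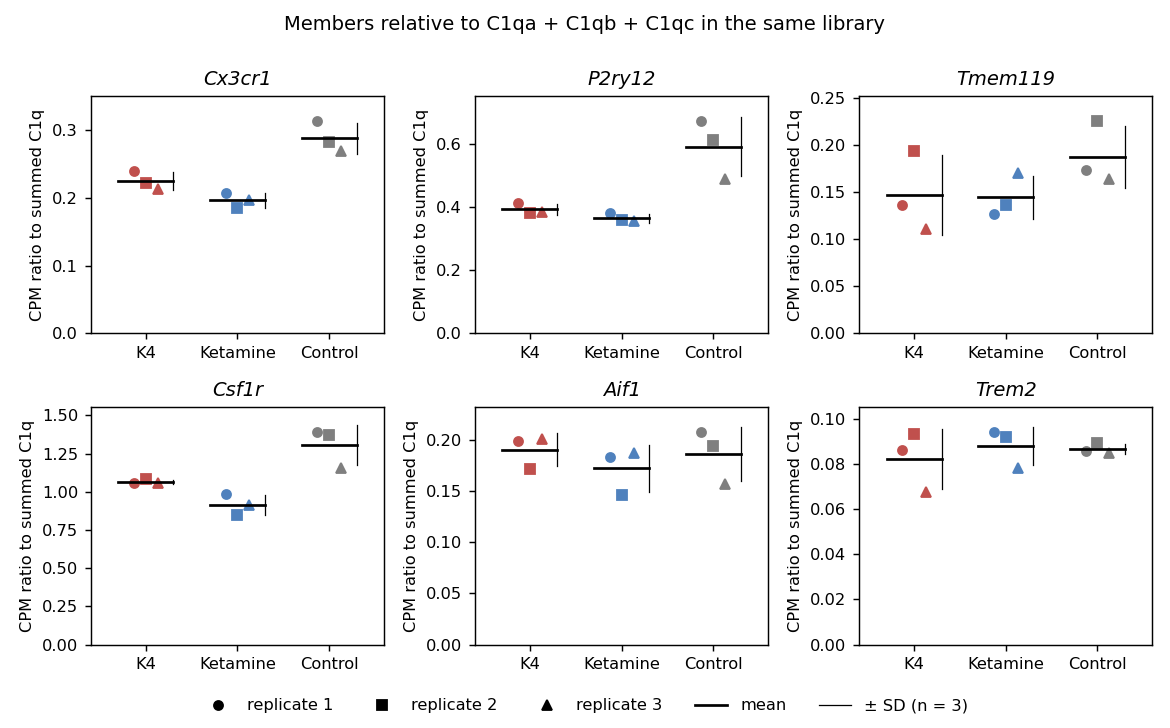
CPM of 6 genes divided by the summed CPM of C1qa, C1qb and C1qc in the same library (vertical axes start at 0); symbols mark replicates, horizontal bars the mean and vertical bars ± SD of 3 libraries. The ratios of Cx3cr1, P2ry12 and Csf1r are highest in Control and lowest in Ketamine without overlap, whereas Tmem119, Aif1 and Trem2 overlap.

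K4 against Ketamine compares the treated groups directly, and none of the 9 genes differed at the threshold. P2ry12, Cx3cr1 and Csf1r were higher in every K4 library than in every Ketamine library, P2ry12 by a narrow margin (37.14 against 37.11 CPM at the nearest), a pattern that 9.49% of all genes showed. Their log2 fold changes were 0.09 for P2ry12 (95% interval −0.20 to 0.37), 0.18 for Cx3cr1 (−0.04 to 0.39) and 0.20 for Csf1r (−0.06 to 0.47), with edgeR adjusted p = 0.883, 0.639 and 0.647. Values for the other genes were 0.01 for Tmem119, 0.12 for Aif1, −0.07 for C1qa, −0.03 for C1qb, 0.12 for C1qc and −0.11 for Trem2. Calls of Cx3cr1 and Csf1r against Control for Ketamine and not for K4 therefore do not show that the drugs differed. No gene of 18047 was called in this comparison by edgeR (0.00%), with 1648 at an unadjusted p below 0.05 and 70 called by DESeq2. Doses are not given, and the routes differed.

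Among themselves, the 9 genes followed more than a single pattern across libraries. Over the 9 libraries, log2 CPM of the receptors Cx3cr1, P2ry12 and Csf1r correlated with each other at Pearson r of 0.907 to 0.953, and the C1q chains with each other at 0.677 to 0.84. These receptors are the ones called lower after ketamine in the same libraries, so their likeness is not independent of those calls. Trem2, a receptor outside this group, gave r of 0.133 to 0.21 with them and 0.481 to 0.805 with the C1q chains. Between a receptor and a C1q chain, r ran from −0.15 to 0.351. After each value had its group mean taken off, a receptor and a C1q chain gave r of 0.511 to 0.874, and all 36 pairs of the 9 genes 0.183 to 0.928. The values between a receptor and a C1q chain turned on Control replicate 2. Over the other 8 libraries, receptors correlated with each other at 0.705 to 0.87 and C1q chains with each other at 0.668 to 0.776, whereas a receptor and a C1q chain gave −0.849 to −0.169. With group means taken off, these 8 libraries gave 0.483 to 0.684 among receptors, 0.306 to 0.692 among C1q chains, −0.659 to 0.107 between a receptor and a C1q chain, and −0.746 to 0.797 over all pairs. The points share depth and composition, and these values are descriptions. The ratio of C1qb to C1qa lay between 0.492 and 0.610 and that of C1qc to C1qa between 0.355 and 0.460 in all libraries.

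The coefficient of variation of CPM was 2.17 to 31.2% in K4 (median 5.35% over the 9 genes), 1.67 to 18.8% in Ketamine (median 6.56%) and 12.2 to 35.2% in Control (median 22.0%). In Control replicates 1 and 3 alone it was 1.52 to 17.1% (median 5.75%). The mean deviation of the 9 genes was most like that of Fth1 (ferritin heavy chain), Abhd4, Wsb2, Psd and Nsmf over the 9 libraries (r = 0.989, 0.979, 0.976, 0.9746 and 0.972). With group means taken off it was most like that of genes that included Myh14, Il33, Nr2e1 and Nsmf (r = 0.997, 0.995, 0.993 and 0.991). Both likenesses include Control replicate 2, the library farthest out.

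**Figure D5:**
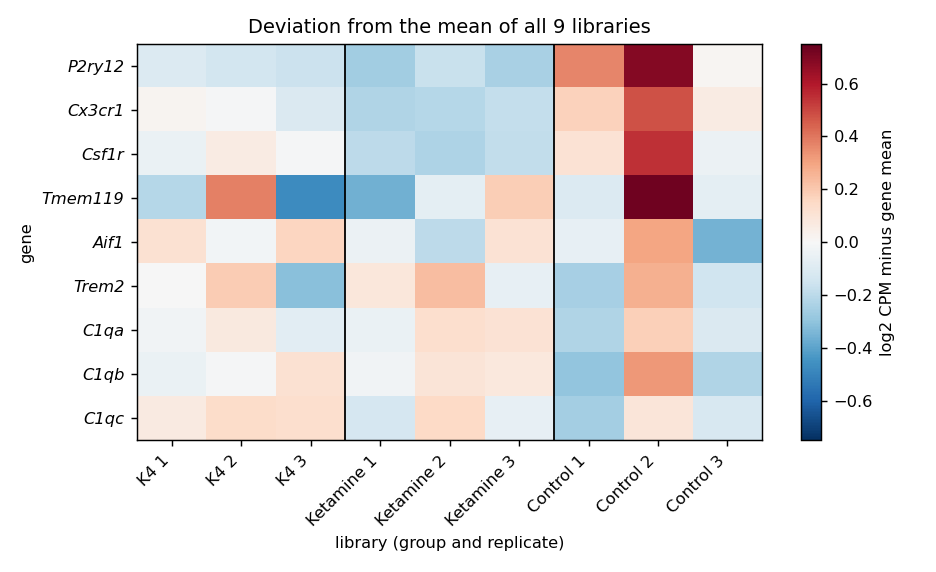
Log2 CPM of each of the 9 genes minus its own mean over 9 libraries (colour scale), by library (columns) and gene (rows). P2ry12, Cx3cr1 and Csf1r are lowest in the 3 Ketamine libraries, Control replicate 2 is high for all genes (mean deviation 0.40), and Control replicates 1 and 3 are low for the C1q chains.

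The ligands of the receptors moved in their own ways. Cx3cl1, which encodes fractalkine and is made mostly by neurons, rose after both drugs, with 544.7 ± 20.7 CPM in K4, 525.5 ± 38.8 CPM in Ketamine and 427.1 ± 47.9 CPM in Control (SD, n = 3 each). Neither treated group overlapped with Control in CPM or in TPM. On TPM, 24.4% of all genes tested lay wholly above Control in K4 and 21.7% in Ketamine, and the share in CPM is not given here. The log2 fold change of Cx3cl1 was 0.35 for K4 (SE 0.083, edgeR adjusted p = 0.0295) and 0.30 for Ketamine (SE 0.083, edgeR adjusted p = 0.0264). The call was made in 4 and 6 of 9 fits that left out 1 library. It was lost for K4 without Control replicate 1, any K4 library or Ketamine replicate 2 (edgeR adjusted p = 0.0528 to 0.11), and for Ketamine without Control replicate 1 or Ketamine replicate 1 or 2 (edgeR adjusted p = 0.0856 to 0.0983). It was also lost with only the treated group and Control in the fit (0.35 for K4 and 0.30 for Ketamine, edgeR adjusted p = 0.0653 and 0.0594) and with scaling to the C1q sum (0.24 and 0.17, edgeR adjusted p = 0.519 and 0.584). On log2(TPM + 1), log2(TPM + 0.1) and unfiltered log2(TPM + 1), limma did not call Cx3cl1 for Ketamine (limma adjusted p = 0.0514, 0.0527 and 0.161), nor for K4 in the unfiltered fit (limma adjusted p = 0.112). CPM of its receptor Cx3cr1 was lower in all 6 of these treated libraries than in any Control library.

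Il34, the CSF1R ligand that neurons supply, rose after ketamine, with 44.3 ± 3.00 CPM in K4, 49.7 ± 0.948 CPM in Ketamine and 40.3 ± 4.29 CPM in Control (SD, n = 3 each). Its log2 fold change was 0.30 for Ketamine (SE 0.079, edgeR adjusted p = 0.0205, called in 5 of 9 fits that left out 1 library but not with the length offset, where edgeR adjusted p = 0.105) and 0.14 for K4 (edgeR adjusted p = 0.317). Csf1, the other ligand, had values of −0.17 for K4 and −0.19 for Ketamine (edgeR adjusted p = 0.279 and 0.173).

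With all 9 libraries in the fit, sheddases and signalling partners around the 9 genes were lower where called. The background for this and every later list is 6.07% of all genes called after K4 and 16.7% after ketamine. Without Control replicate 2 it is 8.42% and 16.6%. Of 12 tested genes of fractalkine and purinergic signalling, Cx3cl1 rose and Adam10 fell after K4, and Cx3cl1 rose and Adam10 and Adam17 fell after ketamine. The median log2 fold changes of this list were −0.17 for K4 and −0.29 for Ketamine, against 0.00 over all genes in both comparisons. Without Control replicate 2 they were −0.07 and −0.16, against 0.01 over all genes in both. In that fit 1 of the 12 rose and none fell after K4, and 1 rose and 1 fell after ketamine. Adam10, a protease that sheds fractalkine and TREM2, averaged 68.2 ± 1.13 CPM in K4, 61.2 ± 1.97 CPM in Ketamine and 79.7 ± 5.47 CPM in Control. It fell by 0.38 on the log2 scale after ketamine (edgeR adjusted p = 0.00193, called in all 9 fits that left out 1 library) and by 0.22 after K4 (edgeR adjusted p = 0.0483, called in 1 of 9, without Control replicate 3). Adam17, a related protease, had −0.49 for Ketamine (edgeR adjusted p = 0.0375, called in 3 of 9) and −0.25 for K4 (edgeR adjusted p = 0.313).

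In the CSF1R axis, 1 of 9 genes fell after K4, and after ketamine 1 rose (Il34) and 1 fell, with list medians of 0.01 and 0.08. The gene that fell was Cbl, a ubiquitin ligase that targets CSF1R for degradation. Cbl averaged 104.6 ± 2.03 CPM in K4, 90.6 ± 5.5 CPM in Ketamine and 133.6 ± 6.97 CPM in Control, without overlap (SD, n = 3 each). The log2 fold change was −0.35 for K4 (edgeR adjusted p = 0.00958) and −0.56 for Ketamine (edgeR adjusted p = 0.000349). The K4 call of Cbl was kept under 14 alternatives and lost under 6. Among those 6 were the fit without K4 replicate 3 (−0.34, edgeR adjusted p = 0.0509) and the length offset (−0.16, edgeR adjusted p = 0.152). Spi1, which encodes the transcription factor PU.1, had values of 0.01 for K4 and −0.08 for Ketamine (edgeR adjusted p = 0.968 and 0.773).

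Of 12 tested genes of TREM2 signalling, 1 fell after K4 (Adam10) and 4 after ketamine, and none rose, with medians of −0.10 and −0.27. Without Control replicate 2, 1 of the 12 rose and none fell after K4, and 1 rose and 1 fell after ketamine. The medians were then 0.08 and −0.15. Adam10 and Adam17 are in this list too. Lyn, a Src-family kinase, was at −0.42 for Ketamine (edgeR adjusted p = 0.0374, called in 2 of 9 fits that left out 1 library) and −0.17 for K4 (edgeR adjusted p = 0.441). Tyrobp, the adaptor of TREM2, had 0.04 for K4 and −0.16 for Ketamine (edgeR adjusted p = 0.916 and 0.593).

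Complement genes beyond C1q were called in both directions. Among 16 tested, 1 rose after K4 and 1 rose and 2 fell after ketamine, with medians of 0.12 and −0.22. These counts lay near the shares over all genes, of which 6.07% were called after K4 and 16.7% after ketamine. Calr, which encodes the chaperone calreticulin, a C1q-binding protein, averaged 351.0 ± 22.2 CPM in K4, 361.6 ± 2.71 CPM in Ketamine and 300.2 ± 3.07 CPM in Control (SD, n = 3 each). It rose by 0.27 on the log2 scale after ketamine (edgeR adjusted p = 0.00882, called in all 9 fits that left out 1 library) and by 0.23 after K4 (edgeR adjusted p = 0.0404, called in 2 of 9, but not with the length offset, where edgeR adjusted p = 0.0901). Cd93, a membrane protein also made by endothelium, fell after ketamine (−0.78, edgeR adjusted p = 0.0372, called in 5 of 9). The proteases C1r and C1s, which join C1q in the C1 complex, had 0.36 and 0.27 for K4 and 0.18 and 0.14 for Ketamine, and the central component C3 had 0.49 and 0.26, none called (edgeR adjusted p of 0.111 to 0.654). Without K4 replicate 2, C3 was called higher after K4 (0.66, edgeR adjusted p = 0.0402).

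Other microglial markers were mostly below 0 on the log2 scale. Of 19 tested, none was called after K4 (15 below 0, median −0.18) and 3 fell after ketamine (16 below 0, median −0.26), and none rose. Of all genes tested, 3.80% were called lower after K4 and 9.75% after ketamine. Without Control replicate 2 the medians were 0.01 and −0.10, and 1 of the 19 fell after ketamine. Mertk, a receptor for the uptake of dying cells that astrocytes also express, averaged 27.7 ± 3.49 CPM in K4, 26.6 ± 1.29 CPM in Ketamine and 40.6 ± 10.02 CPM in Control (SD, n = 3 each). It fell after ketamine (log2 fold change −0.61, edgeR adjusted p = 0.0208, lost without any of the Ketamine libraries at 0.0612 to 0.0668), and its value for K4 was −0.55 (edgeR adjusted p = 0.0579). Sall1, a transcription factor of microglial identity, had −0.39 for Ketamine (edgeR adjusted p = 0.0367, called in 2 of 9 fits that left out 1 library) and −0.21 for K4 (edgeR adjusted p = 0.278). Siglech had no count in any library. The summed CPM of this list was 517.2 to 554.9 in K4, 502.6 to 528.9 in Ketamine and 530.1 to 751.6 in Control, whose highest value came from Control replicate 2.

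Genes of the disease-associated microglial state did not rise as a group with all 9 libraries in the fit. Of 16 tested, 1 rose after K4 (median 0.05) and 1 fell after ketamine (median −0.12). Without Control replicate 2 the medians were 0.18 and 0.02, against 0.01 over all genes in both comparisons. In that fit 1 of the 16 rose after K4, and 1 rose and 1 fell after ketamine. Timp2, a metalloprotease inhibitor, rose by 0.25 on the log2 scale after K4 (edgeR adjusted p = 0.0473, called in 1 of 9 fits that left out 1 library), and was at 0.10 for Ketamine (edgeR adjusted p = 0.329). Lpl, lipoprotein lipase, fell after ketamine (−0.44, edgeR adjusted p = 0.0159), a call lost without Control replicate 3 or Ketamine replicate 2 (edgeR adjusted p = 0.0546 and 0.076). Among 10 tested cytokine and innate sensing genes the medians were −0.08 for K4 and −0.21 for Ketamine. Without Control replicate 2, 12 were tested, and their medians were 0.11 and −0.08. With all 9 libraries none was called after K4, and 1 fell after ketamine. That gene was Tlr4, the receptor for lipopolysaccharide, at 1.87 ± 0.483 CPM in K4, 1.55 ± 0.517 CPM in Ketamine and 3.06 ± 0.342 CPM in Control (log2 fold change for Ketamine −0.99, edgeR adjusted p = 0.0234, lost without Control replicate 3 or Ketamine replicate 3 at 0.0575 and 0.094). With the length offset, the ketamine calls of Sall1, Adam17, Lyn and Cd93 and the K4 calls of Adam10 and Timp2 were lost (edgeR adjusted p = 0.0917 to 0.217), and limma on log2(TPM + 1) made none of these 6 calls.

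Markers of border macrophages, which share several of the 9 genes, were called in neither comparison. Of 11 tested, the median log2 fold change was 0.60 for K4 and 0.13 for Ketamine. Their summed CPM was 14.3 to 49.8 in K4, 21.1 to 26.3 in Ketamine and 20.2 to 23.5 in Control, against 292.7 to 312.0, 271.5 to 288.1 and 286.1 to 413.0 CPM for the 9 genes. K4 replicates 1 and 3 were high at 37.1 and 49.8 CPM, and K4 replicate 2 was the lowest of all libraries. RT1-Da, an MHC class II chain, followed this spread with 3.33, 0.611 and 5.504 CPM in the K4 libraries, and averaged 1.68 ± 0.137 CPM in Ketamine and 0.870 ± 0.108 CPM in Control. Its log2 fold change was 1.84 for K4 (edgeR adjusted p = 0.0879) and 2.33 without K4 replicate 2 (edgeR adjusted p = 0.00978). In K4 replicates 1 to 3, P2ry12 had 38.8, 37.8 and 37.1 CPM, Cx3cr1 22.5, 22.0 and 20.5, and Csf1r 99.3, 107.3 and 102.1. The part of border macrophages in these values was not tested.

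Markers of other brain cells moved as well, where 3.80% of all genes were called lower after K4 and 9.75% after ketamine. Of 8 tested astrocyte markers, 2 fell after K4 and 5 after ketamine (medians −0.41 and −0.46), and of 6 oligodendrocyte precursor markers 3 and 5 fell (medians −0.54 and −0.74). Among 10 endothelial and mural markers 3 and 4 fell (medians −0.28 and −0.46), and none of these 3 lists had a marker that rose. Without Control replicate 2 the falls numbered 4 and 4 among astrocyte markers (with 1 and 2 called higher), 3 and 5 among precursor markers, and 3 and 4 among vascular markers, with medians of −0.20 and −0.25, −0.33 and −0.54, and −0.13 and −0.34. Summed CPM of the precursor list was 449.3 to 514.1 in K4, 417.2 to 446.8 in Ketamine and 577.9 to 933.5 in Control, with Control replicate 2 highest. Astrocyte markers summed to 3216 to 3656 CPM in K4, 3075 to 3314 CPM in Ketamine and 3565 to 5712 CPM in Control, again with Control replicate 2 highest. Vascular markers summed to 378.8 to 448.5 CPM in K4, 326.6 to 366.2 CPM in Ketamine and 459.4 to 645.4 CPM in Control.

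Among the remaining cell types, calls after ketamine were confined to neuronal markers. Of 7 oligodendrocyte markers, 1 rose after K4 and none was called after ketamine (medians 0.24 and −0.18). Of 8 neuronal markers, 1 fell after K4, and 1 rose and 2 fell after ketamine (medians 0.07 and 0.08). Over all genes, 6.07% were called after K4 and 16.7% after ketamine. None of 4 blood leukocyte, 4 red cell or 5 meningeal and choroid plexus markers tested was called, with summed CPM of leukocyte markers of 11.5 to 17.7 in K4, 10.1 to 11.9 in Ketamine and 9.42 to 11.02 in Control. The K4 sums of leukocyte markers lay above those of Control by a narrow margin (11.52 against 11.02 CPM at the nearest). Of the 11 genes summed, 8 averaged below 1 CPM, and no share over all genes is given for this pattern. Medians were 0.61 for K4 and 0.30 for Ketamine among leukocyte markers, 0.20 and −0.64 among red cell markers, and 0.24 and 0.42 among meningeal and choroid plexus markers. In K4 against Ketamine no gene of any of the 16 lists was called. P2ry12 after both drugs, and Cx3cr1 and Csf1r after ketamine, were thus called lower where several astrocyte, precursor and vascular markers were also called lower. Trem2, also a receptor, was not called. The part of the marker shifts in the receptor values was not tested.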

How the data were processed

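RNA sequencing was made from total RNA of rat medial prefrontal cortex with a poly(A)-selecting, strand-keeping kit, per the labels' protocols, in 3 groups of 3 libraries. The build was rn6 and the tools included HISAT2 2.1.0, StringTie 2.1.3b, Trimmomatic and bcl2fastq 2.20.0, per the submitters' processing notes. Which tool counted the reads, and with what strand setting, is not given in the sources used here. The authors deposited raw counts per gene, and a table of FPKM and TPM values for every library. FPKM served only to derive the implied transcript lengths, together with the counts.

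Counts of 18047 genes (filterByExpr, minimum count 10, minimum total 15) were fitted in R 4.3.3 with edgeR 4.0.16 (TMM, robust quasi-likelihood, all 9 libraries, 3 groups). A call needed an adjusted p below 0.05 (Benjamini-Hochberg, across the whole table), and the fit was tested on simulated data. The common biological coefficient of variation was 10.2%. Alternatives used RLE or upper quartile scaling, no filter, DESeq2 1.42.0, only the groups compared, a replicate block, leaving out each library, a length offset, limma 3.58.1 on deposited TPM with pseudocounts of 1 and 0.1, and C1q-sum scaling, added after the data were seen. No replicate pair was alike within sampling noise.

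The 9 genes and the 16 lists were chosen with earlier results of these data known. For each of 8 pathway lists the text names up to 3 called genes with the smallest p, or, if no gene was called, the one ranked first by p, and always Cx3cl1, Csf1, Il34, Tyrobp, C1r, C1s, C3 and Spi1. Genes alike in pattern were the 5 with the highest Pearson r. Some genes that these rules take are not reported here. Names and promoter sequences came from RefSeq tables of GRCr8, and no coordinates of rn6 were used.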

Additional observations from a re-analysis of the deposited data

How the results depend on the processing

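Most single-gene values kept their direction and side of the threshold (1047 of the values under an alternative), while 192 lost a call, 15 gained a call and 57 changed sign. In K4 against Control, the count of genes called was 1095 (409 higher, 686 lower), 1890 with DESeq2, 452 with only the 2 groups compared, 428 with the length offset, 304 with C1q-sum scaling (32 higher, 272 lower) and 3 with limma on unfiltered log2(TPM + 1), and 174 to 1548 when 1 library was left out. The split was 527 higher and 563 lower with upper quartile scaling, 217 and 211 with the length offset, 754 and 774 without Control replicate 3, 805 and 63 with limma on log2(TPM + 1) and 750 and 56 on log2(TPM + 0.1). Of the 9 genes, 1 was called, 0 with only the 2 groups compared or with any of the limma fits, and 0 to 2 with 1 library left out. In Ketamine against Control, 3013 genes were called (1254 higher, 1759 lower), 1372 with the length offset, 1302 with C1q-sum scaling (49 and 1253) and 1733, 1744 and 566 with limma on log2(TPM + 1), log2(TPM + 0.1) and unfiltered log2(TPM + 1), mostly higher (1345 and 388, 1348 and 396, 385 and 181), and 1177 to 3191 with 1 library left out. Of the 9 genes, 3 were called, 1 in each limma fit and 2 to 5 with 1 library left out. In K4 against Ketamine, 0 genes were called, 6 with no filter, 70 with DESeq2, 27 with only the 2 groups compared, 1 with the replicate block, 4 with C1q-sum scaling, 2 in each limma fit and 0 to 27 with 1 library left out. Fewer samples or an all-gene median shift enter by construction in the fits of 2 groups, limma on TPM and C1q-sum scaling; otherwise the cause was not tested.

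The genes that changed sign were not called with all 9 libraries. For K4, Trem2 (0.00) was at 0.0030 with RLE, 0.0193 with upper quartile scaling, 0.0057 with no filter, 0.0025 with DESeq2, 0.00011 with only the 2 groups compared, and 0.16, 0.17 and 0.16 with limma. The length offset gave −0.025 for Aif1, −0.065 for C1qa, −0.027 for C1qb, −0.097 for Tyrobp and −0.036 for Spi1 after K4, and −0.053 for C1qa, −0.056 for C1qb, −0.049 for C1qc and −0.034 for Trem2 after ketamine. C1q-sum scaling gave −0.033 for Tyrobp and −0.065 for Spi1 after K4, and the limma fits 0.026, 0.028 and 0.026 for Csf1. After ketamine, Aif1 was at 0.0050 with upper quartile scaling and 0.12 with limma, and Spi1 at 0.068, 0.083 and 0.068 with limma. In K4 against Ketamine, Tmem119 was at −0.033 with the replicate block, and C1qb at 0.029 with the length offset and 0.014 with limma. With 1 library left out, ranges after K4 were −0.038 to 0.15 for C1qa, −0.039 to 0.28 for C1qb, −0.034 to 0.13 for Spi1, −0.57 to 0.032 for Tmem119, −0.12 to 0.17 for Trem2, −0.022 to 0.29 for Aif1 and −0.049 to 0.18 for Tyrobp. After ketamine they were −0.010 to 0.31 for C1qb, −0.0074 to 0.17 for C1qc, −0.45 to 0.025 for Tmem119, −0.15 to 0.17 for Aif1 and −0.13 to 0.038 for Spi1. In K4 against Ketamine they were −0.078 to 0.0022 for C1qb, −0.27 to 0.18 for Tmem119 and −0.23 to 0.011 for Trem2.

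Deviations of same-numbered libraries correlated at 0.00241 to 0.106, all above 0. Those of differently numbered libraries correlated at −0.157 to 0.0688, mostly below 0. The values were small, and not every library correlated best with its own number, so the numbers were not taken as pairs. Whether libraries of the same number shared a step of handling was not tested. A replicate block gave 1168 genes for K4 and 3191 for Ketamine and changed no call of the 9 genes; among other named genes it ended the K4 calls of Calr, Adam10 and Timp2, and made Mertk called after K4. Trem2 had the fewest counts of the 9 genes, and the intervals of Tmem119 and Trem2 were the widest.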
